A study of Homo sapiens with 6 samples.

Results

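The HOX cluster genes are the protein-coding genes named HOXA, HOXB, HOXC or HOXD followed by a number, and 38 of the 29185 genes in the expression table meet that rule. They comprise 11 HOXA genes on chromosome 7, 9 HOXB genes on chromosome 17, 9 HOXC genes on chromosome 12 and 9 HOXD genes on chromosome 2. GENCODE release 29 annotates 39 such genes, and the remaining one, HOXB1, has no row in the table and was not analysed here. HOX genes encode homeodomain transcription factors that specify position along the body axis. Genes of the 4 clusters that carry the same number are paralogs and form a paralog group, and the numbers run from the anterior end of a cluster (1) to its posterior end (13). In the female reproductive tract HOXA9, HOXA10, HOXA11 and HOXA13 are known to mark the oviduct, the uterus, the cervix and the upper vagina in that order, and epithelial ovarian cancers are known to switch on HOX genes that the ovarian surface epithelium does not use.

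SKOV3 is a long-established line of human ovarian cancer cells. Poly(A) RNA was sequenced from SKOV3 cells that carry a silencing construct against KLF5 (sh-KLF5, genotype labelled KLF5 knockdown, 3 libraries) and from their control cells (sh-NC, genotype labelled WT, 3 libraries). The silencing sequence was delivered in the lentiviral vector pLKO.1-EGFP-Puro, which also carries EGFP and puromycin resistance, and stable cells were kept by puromycin selection. The labels do not describe the construct in the control cells. The labels name 1 knockdown and 1 control, without saying how many silencing sequences or stable lines stand behind them. No drug treatment or time point is given for these libraries. KLF5 is a zinc finger transcription factor that binds GC-rich DNA, and the comparison asks which genes differ once it is silenced. The labels do not say whether the 3 libraries of a group came from separate cultures, so the p-values measure only the spread between these libraries, which may be technical.

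The libraries held 15852319 to 17543896 reads in sh-NC and 16009859 to 16871350 in sh-KLF5. KLF5 was called lower, with normalized counts of 4371, 4425 and 4494 in sh-NC libraries 1 to 3 and 1745, 1439.9 and 1436 in sh-KLF5 libraries 1 to 3 (log2 fold change -1.53 ± 0.12 (SE, n = 3 per group), adjusted p = 2.47e-07). A normalized count is a number of reads divided by 1 scaling factor per library, and the values given for single libraries are such counts in the order of libraries 1 to 3. Of the markers of the line, the epithelial keratins KRT8 and KRT18 were abundant but lower in sh-KLF5, KRT8 going from 21816 ± 2074 to 9817 ± 2027 normalized counts (SD, n = 3 per group; log2 fold change -1.17, adjusted p = 4.35e-05) and KRT18 from 3696 ± 414 to 2377 ± 361 (log2 fold change -0.64, adjusted p = 0.00343). The other epithelial markers were not lower by the test. EPCAM was at 120 ± 21.7 against 118 ± 17.9 (SD, n = 3 per group; log2 fold change -0.03, adjusted p = 0.954). KRT19 (2 to 17 reads) had a log2 fold change of 1.14 (adjusted p = 0.285). The sum of the 4 epithelial markers, most of which is KRT8, was 22839 to 27475 in sh-NC and 9688 to 14036 in sh-KLF5. The ovarian carcinoma antigen MUC16 was lower as well, at 86.2 ± 29.1 against 30.1 ± 13.3 (SD, n = 3 per group; log2 fold change -1.54, adjusted p = 0.00737), whereas the Müllerian factor PAX8 (248 to 419 reads) and ERBB2, which is amplified in SKOV3 (1271 to 2081 reads), did not pass the test. Of the 3 blood and endothelial markers PTPRC had 0 to 1 reads and CD34 1 to 6, but PECAM1 had 31 to 75, and their sum was 63.3 to 84.9 in sh-NC and 33.1 to 66.0 in sh-KLF5. The part of these markers' differences in those of the HOX genes was not tested. Library 1 of sh-KLF5 stood apart from its group, since its counts differed from those of libraries 2 and 3 by a chi-square of 26.3 and 33.7 per degree of freedom, against 11.6 between libraries 2 and 3 and 4.70 to 9.30 within sh-NC. Of the 32 HOX genes tested it was the lowest of the sh-KLF5 libraries for 18 and the highest for 10, whereas over all tested genes it was lowest for 38.5% and highest for 40.3%. In such bulk libraries a smaller share of cells that express a gene and less of its RNA per cell cannot be told apart.

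Paralogs are alike in sequence, above all where they encode the homeodomain. Some paralogs differed between the groups in opposite directions. In sh-KLF5 HOXA5 was higher and HOXB5 lower (group 5), and HOXA3 was higher and HOXB3 lower (group 3). The longest run of bases shared exactly by any GENCODE release 29 transcript of HOXA5 and any of HOXB5 was 23, and for HOXA3 and HOXB3 it was 32. It was 17 for HOXC10 with HOXD10 and with HOXA10, and 19 for HOXB8 with HOXC8. The read length is not given in the sources used here. How the counting treated reads that match 2 genes is not given either.

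After silencing of KLF5, 5 of the 9 HOXB genes were lower by an adjusted p below 0.05 and 0 higher, 2 of the 10 tested HOXA genes were higher and 0 lower, 2 HOXC genes were lower and 1 higher, and no HOXD gene passed the test. Of the 38 HOX genes, 32 had enough reads to be tested. A gene was called when the limma test across all 15803 tested genes gave a Benjamini-Hochberg adjusted p below 0.05 and the log2 fold change of sh-KLF5 over sh-NC was above 1 or below -1. HOXB5, HOXC10 and HOXB8 were called lower, which is 9.38% of the 32, beside 3.37% of all tested genes. HOXA3 was called higher, which is 3.13% of the 32, beside 1.9% of all tested genes. With the adjusted p alone, 7 HOX genes were lower (21.9%, beside 6.85% of all tested genes) and 3 were higher (9.38%, beside 6.04%). When 1 library was left out the counts were 3 to 8 lower and 1 to 4 higher. The count lower was 3 without sh-NC library 1, since HOXB2, HOXB3, HOXB8 and HOXB9 then lost the adjusted p. Of the HOXB genes that left HOXB5 alone. The count higher was 1 without sh-NC library 1, 2 or 3 or sh-KLF5 library 2. The 3 libraries of one group did not overlap those of the other for 9 tested HOX genes that were lower in sh-KLF5 (28.1%, beside 15.9% of all tested genes) and for 5 that were higher (15.6%, beside 15.4%). An exact permutation test of 3 libraries against 3 cannot give a two-sided p below 0.1.

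**Figure D1:**
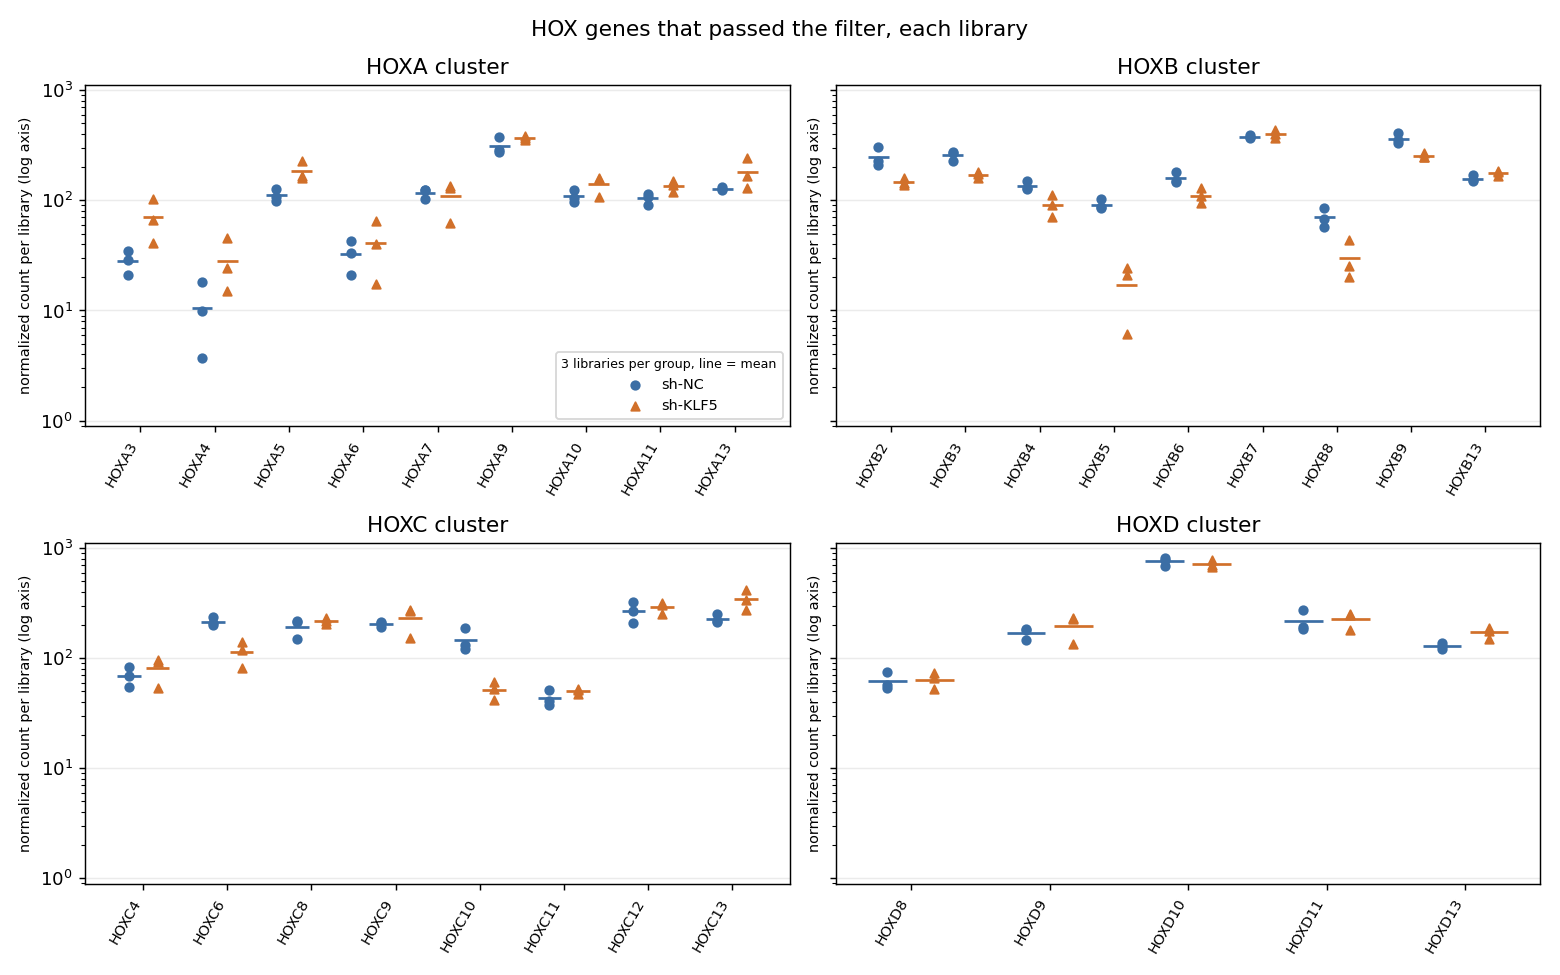
Normalized count (log axis) of 31 tested HOX genes in each library, in 1 panel per cluster, with circles for sh-NC, triangles for sh-KLF5 and a line at the mean of the 3 libraries. The groups are most widely apart for HOXB5, with 85.7 to 102 in sh-NC and 6.12 to 24.3 in sh-KLF5, and HOXD10 is the highest gene in both groups.

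In the HOXB cluster, 7 of the 9 genes had a log2 fold change below 0. For all 7 the groups did not overlap, beside 15.9% of all tested genes that were lower without overlap. The cluster's median log2 fold change was -0.57, beside a median of -0.0023 over all tested genes. HOXB5 showed the largest fall of the 32 HOX genes, with 102, 85.7 and 87.0 in sh-NC libraries 1 to 3 and 6.12, 24.3 and 21.1 in sh-KLF5 libraries 1 to 3 (log2 fold change -2.55 ± 0.40 (SE, n = 3 per group), adjusted p = 0.000325). Its mean in sh-KLF5 was 18.7% of that in sh-NC. All 3 sh-KLF5 libraries lay far below the sh-NC range, library 1 the lowest of them. HOXB8, which is known for keeping myeloid progenitors undifferentiated when it is expressed at high level, had 84.7, 68.0 and 57.3 in sh-NC against 43.8, 25.2 and 20.1 in sh-KLF5 (log2 fold change -1.27 ± 0.31 (SE, n = 3 per group), adjusted p = 0.0111). The groups did not overlap, but without sh-NC library 1, the highest, the adjusted p was 0.0677.

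HOXB2 and HOXB3, the anterior HOXB genes with roles in the hindbrain, were lower by the adjusted p but did not reach the fold threshold. HOXB2 had 306, 208 and 228 in sh-NC against 139, 159 and 144 in sh-KLF5 (log2 fold change -0.73, adjusted p = 0.0111). HOXB3 had 277, 269 and 230.3 in sh-NC against 181, 173 and 159 in sh-KLF5 (log2 fold change -0.59, adjusted p = 0.0184). The posterior gene HOXB9 was lower by the same measure, with 408, 351 and 330.0 in sh-NC against 247, 272 and 249 in sh-KLF5 (log2 fold change -0.50, adjusted p = 0.0291). In each of these genes every sh-KLF5 library was below every sh-NC library. The adjusted p of all of them rose to 0.101 to 0.185 without sh-NC library 1. HOXB3 and HOXB9 also rose above 0.05 without sh-NC library 2 (0.101 and 0.0966) and without sh-KLF5 library 3 (0.0533 and 0.0657).

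HOXB4, known for expanding blood stem cells, and HOXB6 did not pass the test although their groups did not overlap. HOXB4 had 126, 149.8 and 128 in sh-NC against 71.3, 113 and 90.2 in sh-KLF5 (log2 fold change -0.57, adjusted p = 0.0838). HOXB6 had 182, 149 and 147 in sh-NC against 128, 109 and 94.2 in sh-KLF5 (log2 fold change -0.53, adjusted p = 0.0776). The members that stood out from the rest of the cluster were HOXB7 and HOXB13, whose groups overlapped. HOXB7 had 368, 380.3 and 393 in sh-NC against 434, 398 and 369 in sh-KLF5 (log2 fold change 0.07, adjusted p = 0.779). HOXB13, known as a partner of the androgen receptor in the prostate, had 155, 151 and 169 in sh-NC against 166, 184 and 180.5 in sh-KLF5 (log2 fold change 0.16, adjusted p = 0.568). By number HOXB7 lies between HOXB6 and HOXB8, so in that order the genes with a log2 fold change below 0 did not form 1 unbroken run. By annotated span HOXB7 (chr17:48607227-48633572) contains HOXB8 and HOXB9.

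**Figure D2:**
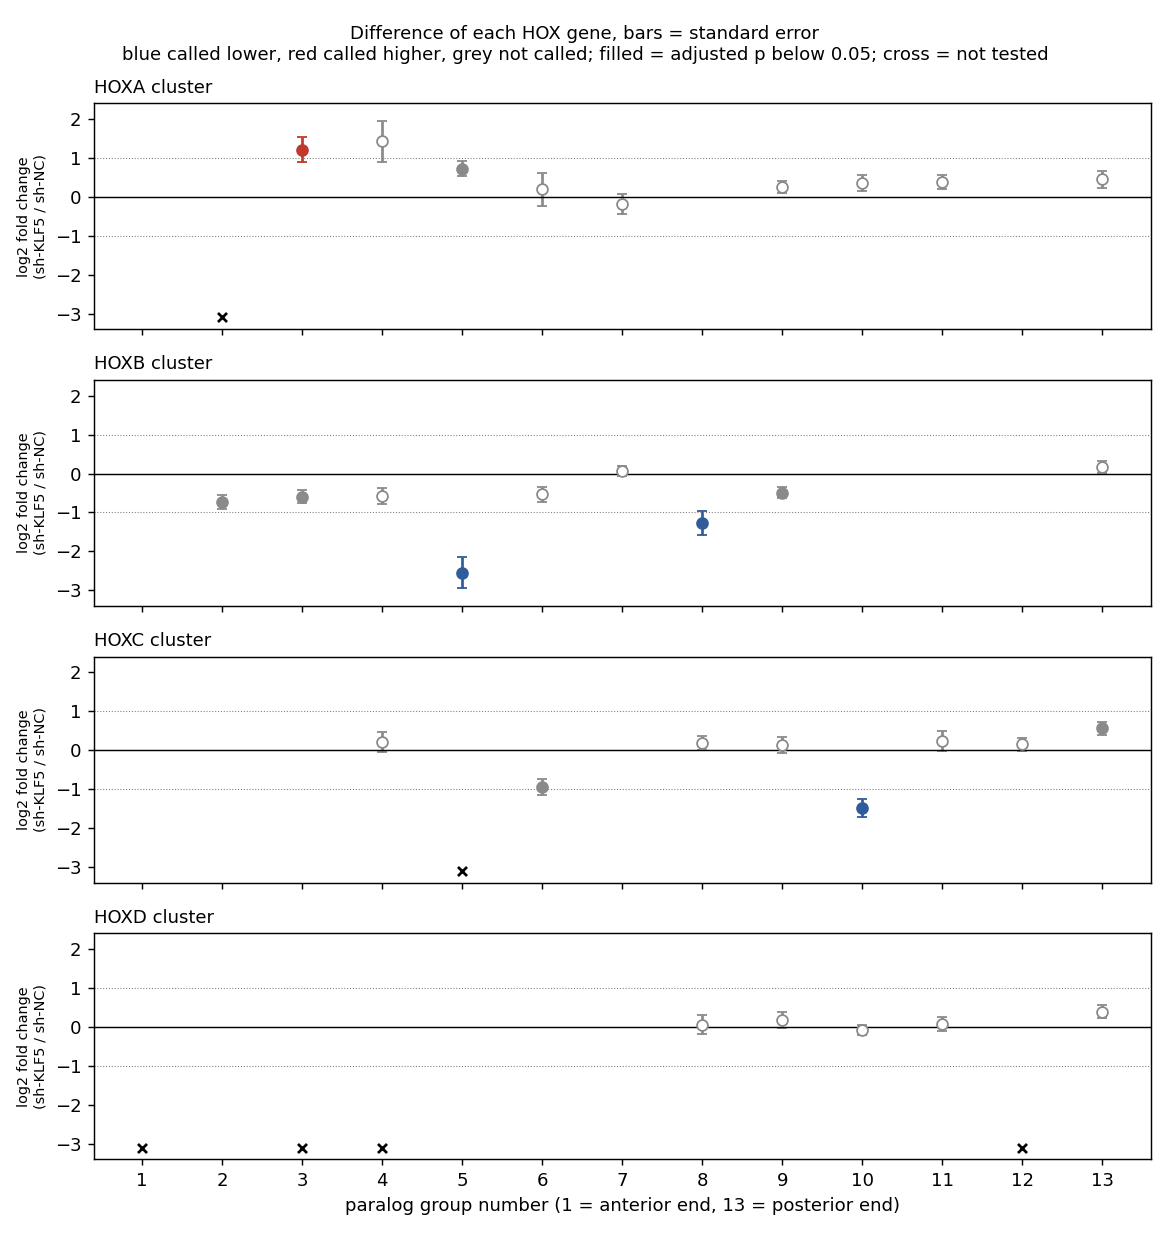
Log2 fold change of sh-KLF5 over sh-NC (bars, standard error of the limma fit, n = 3 per group) against the paralog group number, in 1 panel per cluster, with dotted lines at the fold thresholds, filled points for an adjusted p below 0.05 and crosses for the 6 genes not tested. In HOXB 7 of 9 points lie below 0, in HOXA 8 of 9 lie above 0, and all 5 tested HOXD genes lie between -0.07 and 0.40.

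In the HOXA cluster, 9 of the 10 tested genes had a log2 fold change above 0, of which 2 passed the adjusted p, and the median was 0.37. HOXA3, which is needed for the thymus and parathyroid in the embryo, was the 1 HOX gene called higher, with 28.9, 34.5 and 21.2 in sh-NC libraries 1 to 3 and 103, 66.0 and 41.1 in sh-KLF5 libraries 1 to 3 (log2 fold change 1.21 ± 0.33 (SE, n = 3 per group), adjusted p = 0.0225). Its groups did not overlap, and library 1 of sh-KLF5 was the highest. The call was lost without sh-KLF5 library 1 (log2 fold change 0.89, adjusted p = 0.0745), without sh-KLF5 library 2 (1.21, 0.0771) and without sh-NC library 3 (1.03, 0.115). HOXA5, a gene of lung development, was higher by the adjusted p alone, with 108, 99.5 and 127 in sh-NC against 230.3, 167 and 160.4 in sh-KLF5 (log2 fold change 0.72, adjusted p = 0.0202). Its groups did not overlap, and leaving out sh-NC library 1 or 2 gave an adjusted p of 0.0696 or 0.107.

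HOXA4, the neighbour of HOXA3 in number, had the highest log2 fold change of the cluster but few reads and overlapping groups. It had 3.72, 9.85 and 18.0 in sh-NC against 24.5, 45.6 and 15.0 in sh-KLF5 (log2 fold change 1.43, adjusted p = 0.0925). The genes of the reproductive tract did not pass the test. HOXA9 had 286, 277 and 379 in sh-NC against 386, 369 and 357 in sh-KLF5 (log2 fold change 0.25, adjusted p = 0.308). HOXA10 had 105, 96.6 and 124 in sh-NC against 158, 160.1 and 107 in sh-KLF5 (log2 fold change 0.37, adjusted p = 0.282). HOXA11 had 115, 90.7 and 107 in sh-NC against 151, 138 and 119 in sh-KLF5 (log2 fold change 0.38, adjusted p = 0.216). Of these, HOXA11 was the one whose groups did not overlap. HOXA13 had 132, 124 and 126 in sh-NC against 241, 168 and 130.3 in sh-KLF5 (log2 fold change 0.45, adjusted p = 0.186). Its sh-KLF5 libraries were spread widely and reached down to the sh-NC range.

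The groups overlapped for HOXA6 and HOXA7. HOXA6 had 42.8, 33.5 and 21.2 in sh-NC against 17.3, 65.0 and 40.1 in sh-KLF5 (log2 fold change 0.19, adjusted p = 0.82). HOXA7 had 103, 123 and 125 in sh-NC against 62.2, 135 and 130.3 in sh-KLF5 (log2 fold change -0.18, adjusted p = 0.713). Library 1 of sh-KLF5 was the lowest of all 6 for HOXA6 and HOXA7, and the sign of both depended on the libraries kept. HOXA2 had 2 to 10 reads per library and was not tested.

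The HOXC cluster held members that moved in opposite directions, with 6 of 8 tested genes above 0 and a median log2 fold change of 0.17. HOXC10, a gene of lumbar motor neurons and the hindlimb, was called lower, with 186, 120.2 and 133 in sh-NC libraries 1 to 3 and 41.8, 60.2 and 52.1 in sh-KLF5 libraries 1 to 3 (log2 fold change -1.48 ± 0.23 (SE, n = 3 per group), adjusted p = 0.000326). Its mean in sh-KLF5 was 35.1% of that in sh-NC, and the call held whichever library was left out. HOXC6 had 199, 235 and 210.1 in sh-NC against 81.5, 118 and 141 in sh-KLF5 (log2 fold change -0.94, adjusted p = 0.00465). It was lower by the adjusted p whichever library was left out, and it passed the fold threshold as well without sh-KLF5 library 3 (-1.12). HOXC13, which drives hair keratin genes, was higher by the adjusted p alone, with 218, 213 and 251 in sh-NC against 273, 335 and 417 in sh-KLF5 (log2 fold change 0.57, adjusted p = 0.034). Its groups did not overlap, and leaving out any library except sh-KLF5 library 1 raised the adjusted p to 0.0616 to 0.145.

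The remaining HOXC genes overlapped between the groups, with log2 fold changes of 0.13 to 0.24. HOXC4 had 54.9, 83.8 and 69.0 in sh-NC against 54.0, 93.1 and 97.3 in sh-KLF5 (adjusted p = 0.669). HOXC8 had 149, 215 and 218 in sh-NC against 217, 203 and 232 in sh-KLF5 (adjusted p = 0.558). HOXC9, which lies between HOXC8 and HOXC10, had 213, 190.2 and 208 in sh-NC against 152, 273 and 269 in sh-KLF5 (adjusted p = 0.73). Library 1 of sh-KLF5 was the lowest of the 6 for HOXC4 and HOXC9. HOXC11 had 41.0, 37.4 and 50.9 in sh-NC against 53.0, 47.5 and 51.1 in sh-KLF5 (adjusted p = 0.604). HOXC12 had 207, 268 and 323 in sh-NC against 254, 316 and 305 in sh-KLF5 (adjusted p = 0.63). HOXC5 had 1 to 7 reads per library and was not tested. By number HOXC10, the called gene, thus lies between HOXC9 and HOXC11, neither of which passed the test. By annotated span the HOX gene next to it on the HOXC9 side is HOXC6 (chr12:53990624-54030823). HOXC6 was lower by the adjusted p.

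In the HOXD cluster no gene passed the limma test, and the median log2 fold change of the 5 tested genes was 0.08. At an unadjusted p below 0.05 the count was 1, with no share over all tested genes counted. The tests edgeR and DESeq2 on the recovered reads called 0 each, beside 3.37% of all tested genes called lower and 1.9% called higher by limma. HOXD10 had 775, 810.0 and 695 in sh-NC against 679, 708 and 776 in sh-KLF5 (log2 fold change -0.07, adjusted p = 0.744). HOXD9 had 179.7, 183 and 146 in sh-NC against 134, 229 and 232 in sh-KLF5 (log2 fold change 0.18, adjusted p = 0.626). HOXD11 had 183, 272 and 193 in sh-NC against 181, 246 and 253 in sh-KLF5 (log2 fold change 0.08, adjusted p = 0.842). HOXD8 was lower in level than these in both groups, with 74.5, 53.2 and 57.3 in sh-NC against 52.0, 73.7 and 66.2 in sh-KLF5 (log2 fold change 0.05, adjusted p = 0.925). HOXD13, a gene of digits and the genital tract, was the 1 tested HOXD gene whose groups did not overlap, with 139, 122 and 129 in sh-NC against 151, 177 and 188 in sh-KLF5 (log2 fold change 0.40, adjusted p = 0.154). The anterior HOXD genes were close to silent, with 0 to 1 reads for HOXD1, 0 to 6 for HOXD3 and 0 to 6 for HOXD4, and HOXD12 had 0 to 10. None of them was tested, and the groups did not overlap for HOXD4, with 3, 3 and 6 reads in sh-NC against 0, 0 and 2 in sh-KLF5.

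**Figure D3:**
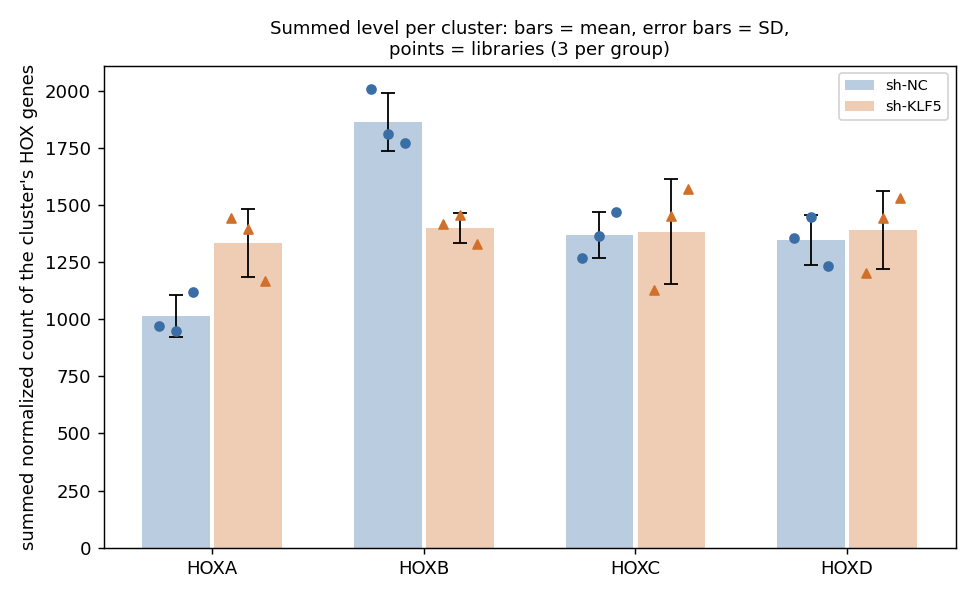
Summed normalized count of the HOX genes of each cluster, with bars at the mean of 3 libraries, error bars for the SD and points for the libraries. The HOXA sum is higher in every sh-KLF5 library than in any sh-NC library and the HOXB sum is lower in every one, whereas HOXC and HOXD overlap.

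Summed over the genes of a cluster, HOXB was lower and HOXA higher in sh-KLF5. The HOXB sum of normalized counts came to 2009, 1811 and 1770 in sh-NC, against 1417, 1456 and 1328 in sh-KLF5, which is a ratio of means of 0.751. The HOXA sum came to 971, 949.9 and 1119 in sh-NC, against 1444, 1394 and 1165 in sh-KLF5, a ratio of 1.32. The libraries did not overlap in either cluster. The ratio was 1.01 for HOXC and 1.03 for HOXD, with overlapping libraries. The sum over all 38 genes was 5589.7 ± 16.9 for the control libraries, against 5509.96 ± 288 after silencing (SD, n = 3 each). HOXB made up 33.3% of that sum in sh-NC and 25.5% in sh-KLF5, and HOXA 18.1% and 24.3%. These sums are given as a description, with no test. Long and highly expressed genes weigh most in them.

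By position rather than cluster, neither end of the clusters had 1 sign throughout. Of the anterior genes, HOXB2 and HOXB3 were below 0 and HOXA3 was above. Of the 13 tested central genes (groups 4 to 8), 6 were below and 7 above. Of the 15 tested posterior genes (groups 9 to 13), 3 were below and 12 above, with a median log2 fold change of 0.18. HOXB9 and HOXC10 were the posterior genes that were lower by the adjusted p, and HOXC13 was the 1 that was higher. Within HOXB the anterior pair and 4 of the 5 central genes were below 0, whereas all 4 posterior HOXA genes were above 0, between 0.25 and 0.45.

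Ratios between paralogs differed between the groups for several pairs. Per kilobase of exon, the level of HOXA5 was 1.26 to 1.75 times that of HOXB5 in the sh-NC libraries and 8.23 to 45.0 times in the sh-KLF5 libraries, the largest value being that of library 1. HOXA3 was at 0.160 to 0.222 of HOXB3 in sh-NC and at 0.446 to 0.983 in sh-KLF5. HOXC10 was at 1.70 to 2.81 times HOXA10 in sh-NC and at 0.421 to 0.773 in sh-KLF5. HOXB9 was at 1.02 to 1.67 times HOXA9 in sh-NC and at 0.749 to 0.865 in sh-KLF5. In none of these 4 pairs did the libraries of the groups overlap. For HOXA5 with HOXB5 and HOXA3 with HOXB3 that was fixed in advance. The HOXA gene was higher in every sh-KLF5 library than in any sh-NC library, and the HOXB gene lower. The ratios restate the counts given above and are not a further result. The HOXC6 to HOXB6 ratio did overlap, at 0.803 to 1.16 in sh-NC and 0.467 to 1.10 in sh-KLF5. The differences between paralogs were not tested.

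Levels can be compared between genes only per length. By mean normalized count per kilobase of exon, HOXD10 (282 in sh-NC, 268 in sh-KLF5) and HOXB7 (249 and 262) ranked first and next in both groups. The libraries of HOXD10 and HOXB7 did not overlap in sh-NC (258 to 301 and 241 to 257) but did in sh-KLF5 (252 to 288 and 241 to 284). In sh-NC, HOXB9 followed at 141, HOXC9 at 121 and HOXB2 at 106. In sh-KLF5 HOXC13 (141) and HOXC9 (138) followed, and HOXB9 and HOXB2 stood at 99.1 and 63.1. HOXB5 went from rank 20 at 44.9 to rank 32 at 8.40, the lowest of the 32 tested genes in sh-KLF5. HOXC10 went from rank 13 to 27 and HOXB8 from 23 to 31. HOXA3 went from 6.55 to 16.3 and HOXA4 from 6.03 to 16.2, which left them at ranks 28 and 29. The median of the 32 was 53.4 in sh-NC, beside 98.1 for all tested protein-coding genes.

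**Figure D4:**
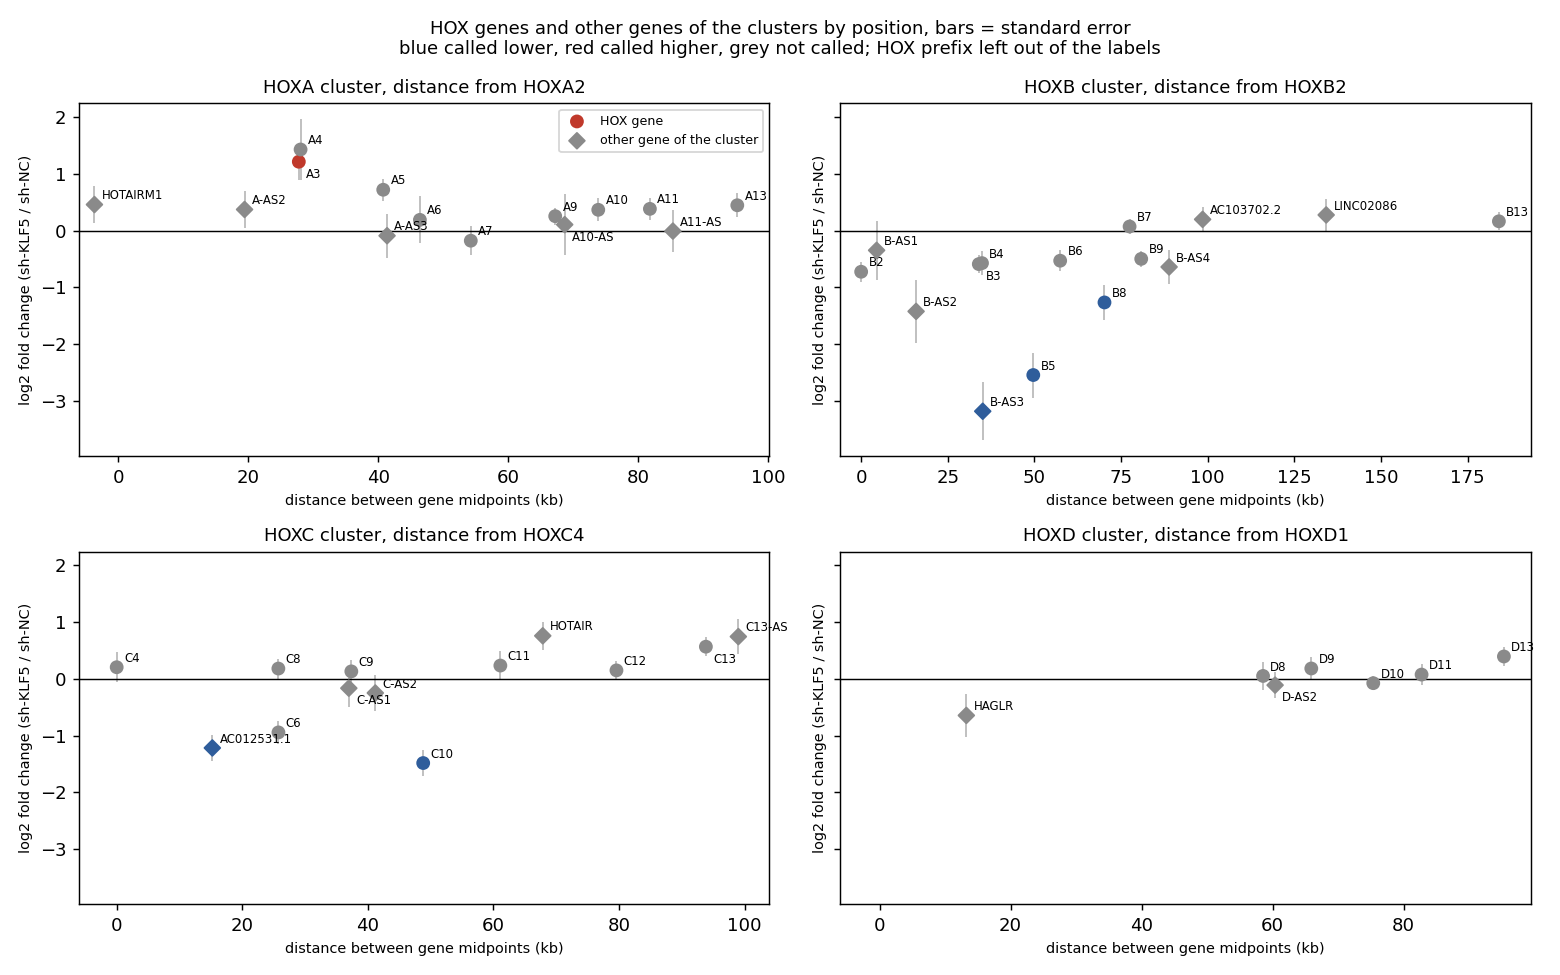
Log2 fold change (bars, standard error) of the tested HOX genes (circles) and other tested genes of the clusters (diamonds) against the distance between gene midpoints in kilobases. Distance is taken from HOXA2, HOXB2, HOXC4 or HOXD1, and HOXA2 and HOXD1 were not tested and are not drawn. The genes called lower in HOXB are HOXB5, HOXB8 and HOXB-AS3, and those in HOXC are HOXC10 and AC012531.1, with uncalled genes between them.

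The clusters also hold antisense and other non-coding genes, of which 35 are in the table and 18 were tested. By limma 2 of the 18 were called lower, beside 3.37% of all tested genes, and 0 higher, beside 1.9%. At an unadjusted p below 0.05 limma gave 3 lower and 2 higher, with no share over all tested genes counted. The count tests edgeR and DESeq2 called 2 lower and 0 higher as well. The median log2 fold change was -0.10. HOXB-AS3, an antisense RNA whose gene (chr17:48549630-48606414) overlaps HOXB3 to HOXB6, had 47, 40 and 27 reads in sh-NC and 5, 5 and 1 in sh-KLF5 (log2 fold change -3.18 ± 0.51 (SE, n = 3 per group), adjusted p = 0.000404). All 3 sh-KLF5 libraries lay far below the sh-NC range, as they did for HOXB5. HOXB-AS3 passed the filter through its sh-NC reads alone, which shaped the share called above. The annotated exons of HOXB-AS3 cover 3.58% of the exonic bases of HOXB5 on the opposite strand, 16.3% of those of HOXB6 and none of those of HOXB8. AC012531.1, a long non-coding gene of the HOXC cluster (chr12:54019910-54022589), had 163, 205 and 155 in sh-NC against 53.0, 90.2 and 84.2 in sh-KLF5 (log2 fold change -1.22 ± 0.22 (SE, n = 3 per group), adjusted p = 0.00137). Without sh-KLF5 library 1 its log2 fold change was -0.98, short of the size of 1 that a call needs. HOTAIR, a non-coding RNA beside HOXC11 known for its link to Polycomb, had 30.7, 39.4 and 36.1 in sh-NC against 60.1, 65.0 and 56.1 in sh-KLF5 (log2 fold change 0.76, adjusted p = 0.0592). Its groups did not overlap.

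Overlapping annotation touches other members too. Of the exonic bases of HOXA3, 15.4% lie opposite HOXA-AS2 and HOXA-AS3 and 9.24% are shared with genes on the same strand. For HOXA7 62.5% lie opposite HOXA-AS3, and for HOXC6 15.7% are shared with HOXC4, HOXC5 and HOXC9. For HOXC10 7.12% are shared with AC012531.2 and 2.70% lie opposite HOXC-AS3. In HOXB, 16.6% of HOXB6 is shared with HOXB3 on the same strand. The shared part is 17.1% for HOXB4 (with AC103702.1, HOXB3 and MIR10A) and 7.94% for HOXB3 (with HOXB6 and HOXB4). The falls of HOXB3, HOXB4 and HOXB6 may therefore not be separate measurements. HOXB8 and HOXA5 share none. Whether the counting used strand is not given in the sources used here, and without strand the reads of a gene and of its antisense partner cannot be told apart.

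Of the protein-coding genes within 500 kb of the extended clusters, 29 were tested. Of these 0 were called, beside 3.37% of all tested genes called lower and 1.9% called higher, and edgeR and DESeq2 called 0. At an unadjusted p below 0.05 there were 11 (5 lower and 6 higher), with no share over all tested genes counted. By the adjusted p alone 4 were lower (13.8%, beside 6.85% of all tested genes) and 3 higher (10.3%, beside 6.04%). Their median log2 fold change was 0.01. Beside HOXB, CBX1, a chromatin protein, was lower by the adjusted p alone (log2 fold change -0.71, adjusted p = 0.00053), as were IGF2BP1, an RNA-binding protein (log2 fold change -0.71, adjusted p = 0.00116), and SNF8 (log2 fold change -0.41, adjusted p = 0.036). SNF8 lost that adjusted p with no filter on low counts (0.0655) and when any library except sh-KLF5 library 1 was left out (0.0601 to 0.139). Beside HOXA the 2 tested neighbours were both higher, SKAP2 (log2 fold change 0.58, adjusted p = 0.0038) and HIBADH (log2 fold change 0.47, adjusted p = 0.0451). HIBADH had an adjusted p of 0.0711 to 0.204 without sh-KLF5 library 1 or 1 of the sh-NC libraries, and without sh-KLF5 library 1 its log2 fold change was 0.30. Beside HOXC the integrin subunit ITGA5 was higher (log2 fold change 0.80, adjusted p = 0.000155) and ZNF385A lower (log2 fold change -0.85, adjusted p = 0.0105, and 0.0532 without sh-NC library 3). The neighbours with the most normalized counts, HNRNPA1 and CBX5 near HOXC, did not pass the test. Whether the neighbours' differences are linked to those of the HOX genes was not tested.

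HOX proteins bind DNA together with homeodomain cofactors of the TALE class, the PBX, MEIS and PKNOX proteins. Of 9 such genes listed, 8 were tested and 1 was called lower, beside 3.37% of all tested genes. It was MEIS1, with 219.7, 172 and 154 in sh-NC libraries 1 to 3 and 71.3, 73.7 and 55.1 in sh-KLF5 libraries 1 to 3 (log2 fold change -1.43 ± 0.21 (SE, n = 3 per group), adjusted p = 0.000163). MEIS1 is known to act with HOXA9 in leukaemia. MEIS2 was lower by the adjusted p alone (log2 fold change -0.53, adjusted p = 0.0318), but its adjusted p was 0.0613 to 0.187 when any library except sh-KLF5 library 1 was left out. PBX2 and MEIS3, among the 3 cofactors with the most normalized counts (not divided by length), had log2 fold changes of -0.16 and 0.0072 and did not pass the test. Their groups overlapped.

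Of 13 homeobox genes that descend from the same ancestral cluster or adjoin HOX clusters, 6 were in the table and 4 were tested. MEOX1 and MEOX2, which pattern the somites, were called lower by limma (adjusted p = 6.15e-05 and 0.000299). They are 2 of these 4, beside 3.37% of all tested genes. MEOX1 had 96 reads over the 3 sh-NC libraries and 1 over the sh-KLF5 libraries. The ratio scaled by library totals was 0.0105 (exact 95% interval 0.000264 to 0.0601). MEOX2 had 108 reads and 5 reads, a ratio of 0.0468 (0.0149 to 0.113). These intervals cover counting error only. MNX1 (log2 fold change -0.51, adjusted p = 0.293) and GBX2 (log2 fold change 0.03, adjusted p = 0.952) did not pass the test.

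The chromatin regulators that set HOX expression passed the adjusted p in shares near those of all tested genes, other than 0 activators that were lower. Trithorax-type activators, the MLL and menin complex and related enzymes, keep HOX genes on, and Polycomb complexes keep them off. Of 16 activator genes tested, 0 were called, beside 3.37% of all tested genes called lower and 1.9% called higher, and edgeR and DESeq2 called 0. At an unadjusted p below 0.05 there were 2, with no share over all tested genes counted. KDM6B, which removes the methyl mark that Polycomb places on histone H3, was higher by the adjusted p alone (log2 fold change 0.68, adjusted p = 0.00222), which is 6.25% of the 16, beside 6.04% of all tested genes, and 0 were lower, beside 6.85%. KMT2A, PSIP1 and KDM6A, those with the most normalized counts, had log2 fold changes of -0.08, -0.26 and 0.06. Of 27 Polycomb genes, 0 were called, beside the same shares of all tested genes, and edgeR and DESeq2 called 0. At an unadjusted p below 0.05 there were 5, again with no share over all tested genes. By the adjusted p alone PHF1 (log2 fold change 0.66, adjusted p = 0.00357) and BMI1 (log2 fold change 0.66, adjusted p = 0.0116) were higher, whereas CBX2 (log2 fold change -0.48, adjusted p = 0.0277) and the methyltransferase EZH2 (log2 fold change -0.40, adjusted p = 0.0362) were lower, which is 7.41% of the 27 in each direction, beside 6.04% of all tested genes higher and 6.85% lower. When 1 library was left out PHF1 kept its adjusted p, whereas that of BMI1 rose to 0.0575 and 0.0628 without sh-NC library 2 or 3, that of CBX2 to 0.0511 to 0.138 without 1 of the sh-NC libraries and that of EZH2 to 0.0952 to 0.179 without 1 of these or sh-KLF5 library 2. RBBP7, RBBP4 and SUZ12, those with the most normalized counts, had log2 fold changes of 0.15, -0.18 and 0.04.

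Retinoic acid is known to switch on anterior HOX genes through its receptors. Of 6 receptor genes 5 were tested. By limma 0 were called, beside 3.37% of all tested genes called lower and 1.9% called higher, and edgeR and DESeq2 called 0. At an unadjusted p below 0.05 there were 3 (1 lower and 2 higher), with no share over all tested genes counted. RXRA, RARG and RXRB, those with the most normalized counts, had log2 fold changes of 0.17, -0.12 and 0.30, and RARA had 0.42 (adjusted p = 0.0695). RXRG, with 6 to 42 reads, had the largest log2 fold change of the 5, -1.13 (adjusted p = 0.152), and its groups overlapped.

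KLF factors are known to bind GC boxes and CACCC boxes, and these letters were searched on both strands in the RefSeq promoter windows (GRCh38.p14, 300 bases each) of the 19 HOX genes that have one. No HOXB gene is among them, so HOXB5 and HOXB8 are not covered, and neither is HOXC10. GGGCGG stood in 13 of 26 HOX windows (50.0%), beside 45.0% of all 35116 windows, and CACCC in 10 of 26 (38.5%), beside 59.9%. These are shares of windows, and 7 of the 26 belong to HOXA3. Counted by gene, 10 of the 19 had a window with GGGCGG and 9 a window with CACCC. The 2 motifs can overlap by shared bases on the strand that reads GGGTG, and HOXC4 and HOXC5 share 1 window. The window of the HOXA3 start farthest upstream is shown because HOXA3 was the gene called higher. It lies at chr7:27152534-27152833 on the minus strand and is printed 5′ to 3′ with the GGGCGG letters in capitals.
HOXA3: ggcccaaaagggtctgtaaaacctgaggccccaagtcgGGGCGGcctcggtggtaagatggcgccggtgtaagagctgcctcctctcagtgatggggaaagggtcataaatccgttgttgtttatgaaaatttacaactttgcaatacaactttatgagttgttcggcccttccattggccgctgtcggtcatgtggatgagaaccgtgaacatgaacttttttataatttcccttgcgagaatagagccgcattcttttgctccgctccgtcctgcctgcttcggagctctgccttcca
It holds 1 match to GGGCGG and 0 to CACCC. HOXA3 has 7 windows in that table, of which 4 hold GGGCGG and 2 hold CACCC. No binding of KLF5 was measured in these libraries, and a match is a description of letters.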

How the data were processed

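The authors' submission notes name HISAT2 2.0.5, featureCounts 1.5.0-p3, DESeq2 1.20.0 and the build hg38, without their order, and the annotation is not given in the sources used here. All 29185 genes have GENCODE release 29 coordinates. The authors deposited normalized counts, a signal that equals reads divided by 1 factor per library, and these factors equal the median of ratios. The deposited columns of fold changes and p-values hold the authors' own comparison and were not used, and 0 sample columns were left unmapped. Whole reads were recovered by undoing the factors (all values within 1e-06 of a whole number). Samples were grouped by their titles.

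The main test was limma 3.58.1 (trend and robust) on log2(normalized count + 1) of the deposited values, over the 15803 genes kept by filterByExpr in edgeR (minimum count 10). P-values were adjusted over all of them by Benjamini-Hochberg. Counts at an unadjusted p have no share of all tested genes beside them and are a description only. A fold change is on that scale and understates the change of low genes. The fits with edgeR 4.0.16 and DESeq2 1.42.0 used the recovered reads (R 4.3.3, Python 3.11.15, matplotlib 3.10.9). Depth was 15852319 to 17543896 reads per library, which leaves genes under about 10 reads untested. The test was checked on simulated data.

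Other settings were TMM factors, library totals, pseudocounts of 0.1 and 5, no filter, at least 10 reads in every library, the replicate block and leaving out each library. Same-numbered libraries did not deviate together (correlations 0.059, 0.033 and 0.050), so the numbers do not pair them. HOX genes are named, each with its value in every library where it was tested. The exceptions are 1 HOX gene and 1 cofactor, which count in the totals but are neither reported nor drawn here. Of other lists every called gene and at most 3 with the highest mean normalized count, not divided by length, are named, and any other gene was chosen after its values were seen. The members and lists were chosen with earlier results of these data known.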

Additional observations from a re-analysis of the deposited data

How the results depend on the processing

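HOXB5, HOXC10 and HOXB8 stayed called lower with edgeR, DESeq2, TMM factors, library totals, either pseudocount, no filter and the replicate block. With at least 10 reads in every library 2 were called, since HOXB5 was then not tested. The count of genes called lower was 7 with the adjusted p alone and 2 to 4 when 1 library was left out, and HOXB8 was the one lost (log2 fold change -1.12, adjusted p = 0.0677, without sh-NC library 1). The count called higher was 1 in the main test, 2 with no filter, 2 with the replicate block, 2 with an unadjusted p and 3 with the adjusted p alone. The gene gained by the first 3 of these was HOXA4 (adjusted p = 0.0196 with no filter, 0.0367 with the replicate block). The cause was not tested. The block moved no other HOX gene across the call. When 1 library was left out the count called higher was 0 to 2, with 0 without sh-NC library 3, sh-KLF5 library 1 or sh-KLF5 library 2, and 2 without sh-KLF5 library 3.

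When 1 library was left out the log2 fold changes of 6 genes, none of them called, took both signs. They ranged from -0.23 to 0.69 for HOXA6, from -0.37 to 0.18 for HOXA7, from -0.011 to 0.41 for HOXC9, from -0.018 to 0.30 for HOXC12, from -0.056 to 0.19 for HOXD8 and from -0.030 to 0.25 for HOXD11. Under the other settings no HOX gene changed sign. Of the list genes, those that took both signs, none of them called, were MEIS3 (-0.11 to 0.086), GBX2 (-0.082 to 0.20), KMT2A (-0.17 to 0.022), KDM6A (-0.028 to 0.11) and SUZ12 (-0.15 to 0.15). The call of AC012531.1 ended without sh-KLF5 library 1 (log2 fold change -0.98, adjusted p = 0.00092), and those of MEIS1, MEOX1, MEOX2 and HOXB-AS3 held under each setting that tested them. The ratio of the HOXA sums was 1.26 to 1.40 and that of the HOXB sums 0.733 to 0.782 when 1 library was left out. Other scalings moved the median of all genes by at most 0.01. At this depth HOXA2, HOXC5, HOXD1, HOXD3, HOXD4 and HOXD12 had too few reads to pass the filter, so the main test gave no result for them.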
